A study of Mus musculus with 4 samples.

Results

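The 9 genes described here encode fibroblast growth factor (FGF) ligands (Fgf1, Fgf2, Fgf7, Fgf10 and Fgf18) and the FGF receptor tyrosine kinases (Fgfr1, Fgfr2, Fgfr3 and Fgfr4). They were found by symbol among the 24063 gene symbols of the count tables, and all 9 were present. Each was represented by its RefSeq transcript of highest total count in the 4 libraries. RNA came from lung endothelial cells (ECs) of C57BL6 mice (C57BL6J in the study's methods) aged 8 weeks, collected with magnetic beads that carry an antibody to CD31. The study checked the isolated cells by flow cytometry as CD31+, VE-cadherin+ and CD45-. Post-PNX ECs were taken 7 days after unilateral pneumonectomy (PNX), the removal of 1 lung, and sham ECs came from sham-operated mice. The labels give no day after surgery for the sham ECs. Each group had 2 libraries, each from the pooled cells of 2 mice, and the labels name no transgene. Sham mice had the chest opened without removal of a lung, and the study's methods give ketamine and xylazine for anesthesia and meloxicam for pain after surgery. The libraries are called sham 1, sham 2, post-PNX 1 and post-PNX 2.

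FGFs are secreted proteins that are held near the cell surface by heparan sulfate, a sulfated sugar chain, and that bind the receptors together with it. Binding joins the receptors in pairs, and their kinases then signal through adaptor proteins to the RAS-ERK, PI3K and phospholipase C gamma routes. ERK signalling induces its own inhibitors, among them the Sprouty proteins and the phosphatase Dusp6. In the lung, Fgf10 and Fgf7 are known as signals from mesenchyme to the Fgfr2 of the epithelium, Fgf18 as a factor of the developing alveolus, and Fgf2 as a classic angiogenic factor of ECs.

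Counts on 1 transcript per symbol came to between 41367438 and 50952879 per library. A count of 3, the floor of detection, was 0.0589 to 0.0725 CPM (counts scaled to a common library total), which covers counting error only. The labels give male mice, but none of the 44 chromosome Y genes in the tables had a count in any library, and Xist had 31872 to 33792 normalized counts in each. All 4 libraries thus went against the label for sex, and no result can be given without them. Endothelial markers were abundant, with Pecam1 (CD31) at 373 to 375 FPKM (fragment counts scaled for transcript length and depth) and Cdh5 (VE-cadherin) at 323 to 377 FPKM. RNA of other cells was present too. Sftpc, which encodes surfactant protein C of alveolar type 2 cells, was at 1881 to 2897 FPKM and Scgb1a1 of club cells at 2020 to 4251 FPKM, both above Cdh5 in every library. Ptprc, which encodes CD45, was at 28.1 to 28.6 FPKM, although the study checked the cells as CD45-. In such bulk samples, fewer cells of a type and less RNA per cell cannot be told apart.

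Fgfr1 was the only member higher in post-PNX ECs past the test, with a log2 fold change of 0.58. The test was edgeR's quasi-likelihood method with Benjamini-Hochberg adjustment over all 16208 genes tested, at an adjusted p under 0.01. Fgf1, Fgf7, Fgf10, Fgfr2, Fgfr3 and Fgfr4 were lower, by 1.18-fold to 1.31-fold, and Fgf2 and Fgf18 did not pass. By edgeR none of the 9 changed beyond 2-fold, the size that the study's methods require together with that p, against 7.56% of all genes. The DESeq2 Wald test also gave 0, and of the 8 members with an unadjusted p under 0.05 by edgeR 0 were beyond 2-fold. Over all genes tested, 29.3% were higher and 27.8% lower past the same adjusted p, and 5.9% (higher) and 1.66% (lower) were also beyond 2-fold. The share of members past the test (7 of 9) stands beside 57.1% of all genes, and the 6 lower members beside 27.8%. The 9 members had a median log2 fold change of -0.30, and all genes tested had one of 0.00. The normalized counts of the groups did not overlap in 8 of the 9 members, as in 81.2% of all genes tested. Post-PNX libraries lay above sham in 2 members (40.8% of all genes) and below in 6 (40.5%).

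**Figure D1:**
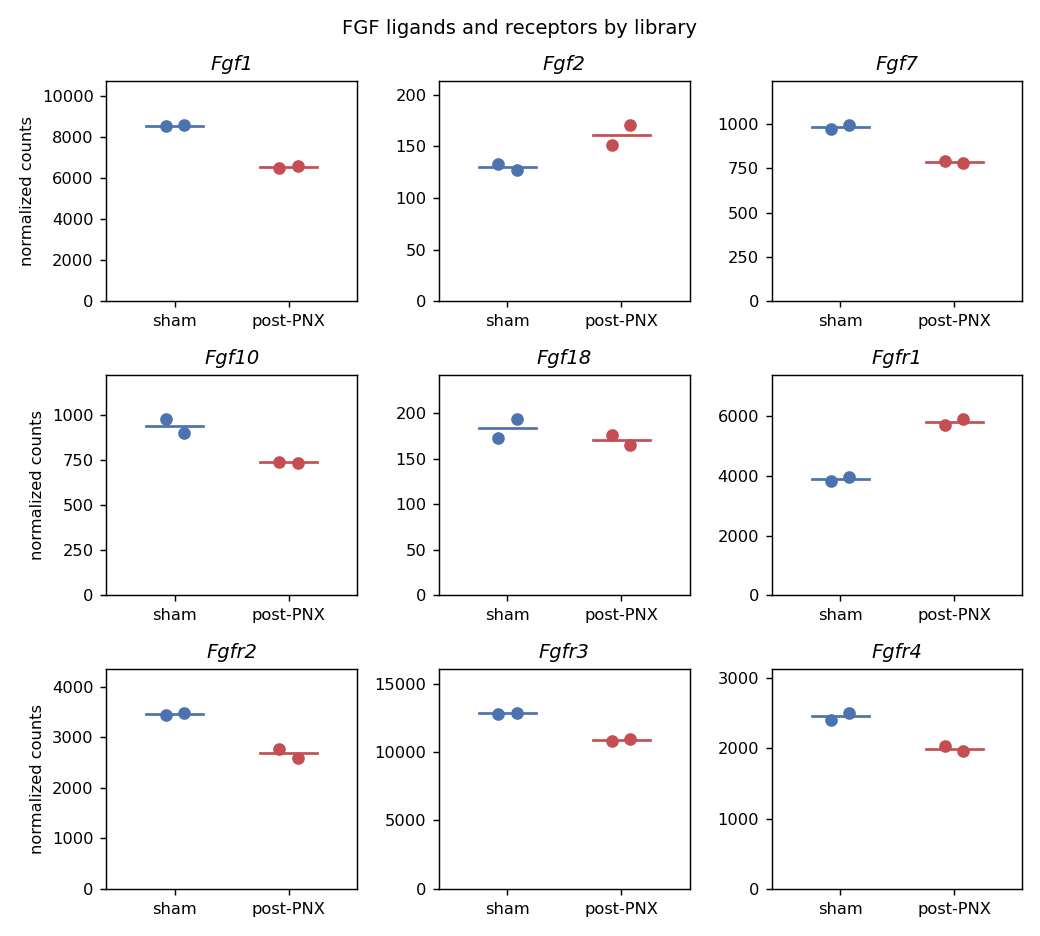
Normalized counts (vertical axis, starting at 0, a separate scale for each gene) of the 9 FGF genes in sham (blue) and post-PNX (red) libraries. Each point is 1 library and each line the mean of 2. Both post-PNX libraries lie above both sham libraries for Fgfr1 and Fgf2, the groups overlap for Fgf18, and the post-PNX libraries are lower for the other 6 genes.

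The size of the falls and their calls depend on the scaling. TMM, the normalization used, assumes that most genes do not change. With the geometric mean count of 12 endothelial markers as the scale instead, the median of all genes moved to a log2 fold change of 0.26, and the members moved by about the same amount. Fgfr1 (0.84) and Fgf2 (0.56) were then higher and Fgf1 (-0.13) lower past the test, and Fgf7, Fgf10, Fgfr2, Fgfr3, Fgfr4 and Fgf18 did not pass. Fgfr3 and Fgf18 changed sign, to 0.02 and 0.16. Over all genes, this scaling gave 9526 higher and 1367 lower genes past the adjusted p, against 4745 and 4513 with TMM. The falls given here are thus relative to the bulk of all genes. Relative to the mean of the endothelial markers Fgfr2 (-0.10, edgeR adjusted p = 0.0109), Fgf10 (-0.09), Fgf7 (-0.06) and Fgfr4 (-0.04) kept a negative sign without passing. The markers themselves did not move alike. Under TMM Pecam1 was level (-0.009, edgeR adjusted p = 0.636), while Cdh5 (-0.22), Kdr (-0.40) and Eng (-0.54) were lower. The adjusted p-values take the marker scale as known without error, and scaling to Pecam1 alone was not tested.

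**Figure D2:**
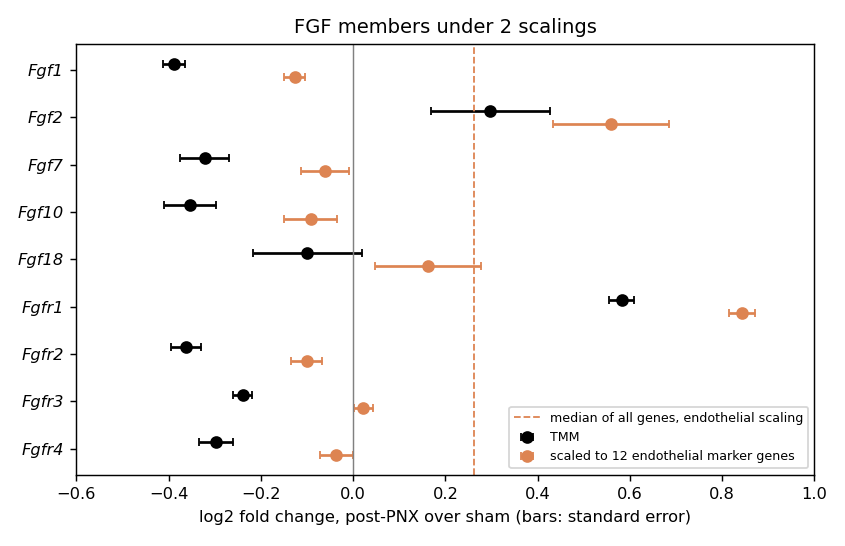
Log2 fold change of post-PNX over sham ECs for each member, with TMM (black) and with scaling to 12 endothelial marker genes (orange). Bars are standard errors of the fit, and the dashed line marks the median of all genes under the second scaling, 0.26. All members shift to the right together, and Fgfr1 stays to the right of 0 and of the dashed line.

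Levels per length were compared with the FPKM values that the authors deposited. In sham ECs the order was Fgfr3 (mean 41.1 FPKM), Fgf1 (29.7), Fgfr4 (10.6), Fgfr1 (10.5), Fgfr2 (9.05), Fgf7 (4.95 and 5.06 in the libraries), Fgf10 (2.79), Fgf2 (2.55) and Fgf18 (1.62). The libraries of Fgfr4 and Fgfr1 overlapped, so these neighbours did not differ beyond their spread in sham ECs. In post-PNX ECs Fgfr1 took the third place with 15.8 FPKM, above Fgfr4 with 8.67 FPKM, and no neighbours overlapped. Fgf2 (3.16 FPKM) then stood above Fgf10 (2.20 FPKM). The length implied for the Fgf2 transcript was 695 bases, the shortest of the members, against 1538 to 5198 for the others.

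Among the receptors, Fgfr1 is the form that mesenchymal cells and ECs are best known to express. It lies on chromosome 8 from 25518759 to 25575718 (mm10). Its normalized counts were 3821 and 3949 in sham 1 and 2 and 5718 and 5915 in post-PNX 1 and 2. Both post-PNX libraries were thus well above both sham libraries. The means were 3885 ± 90.5 (SD, n = 2) and 5817 ± 140 (SD, n = 2). Its log2 fold change of 0.58 (standard error, SE, 0.028, edgeR adjusted p = 1.0e-27) stood at percentile 89.0 of all genes tested. Of its 3 RefSeq transcripts 2 had equal counts, the third had 99.1% of them in the summed libraries of either group, and the log2 ratio was 0.58 for each. The noncoding RNA genes Gm31288 and Gm16159 overlap Fgfr1 over 26088 and 7411 bases and were not analysed here.

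Fgfr3, best known as a brake on bone growth, had the highest level per length of the members. It lies on chromosome 5 from 33721724 to 33737068 and overlaps no other gene in the RefSeq annotation. Sham 1 and 2 had 12794 and 12873 normalized counts of it, and post-PNX 1 and 2 had 10806 and 10936. The groups did not overlap, as in 81.2% of all genes tested. The spread within groups was small over the genes tested too, with a median SD of log2 normalized counts of 0.037 (sham) and 0.035 (post-PNX). Fgfr3 fell with a log2 fold change of -0.24 (SE 0.021, edgeR adjusted p = 8.8e-16).

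Fgfr2, the receptor that the alveolar epithelium uses for Fgf7 and Fgf10, lies on chromosome 7 from 130162451 to 130266808. It had normalized counts of 3437 and 3491 in sham and 2781 and 2601 in post-PNX libraries, lower in both of the latter. Fgfr2 fell with a log2 fold change of -0.36 (SE 0.033, edgeR adjusted p = 3.3e-15). Fgfr4, best known as the receptor of endocrine FGFs in liver, lies on chromosome 13 from 55152818 to 55168759. Normalized counts of Fgfr4 were 2406 and 2507 in sham and 2036 and 1955 in post-PNX libraries, again without overlap. Fgfr4 fell with a log2 fold change of -0.30 (SE 0.036, edgeR adjusted p = 1.4e-10).

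The balance among the receptors within a library does not depend on scaling. Fgfr1 made up 14.6% and 14.9% of the summed FPKM of the 4 receptors in sham libraries and 23.4% and 24.2% in post-PNX libraries. The share of Fgfr3 was 57.9% and 57.3% in sham and 52.3% and 52.8% after PNX, that of Fgfr4 14.7% and 15.1% against 13.3% and 12.7%, and that of Fgfr2 12.7% in both sham libraries against 10.99% and 10.3%. Shares sum to a fixed total, so a larger share of Fgfr1 lowers those of the others whether or not their own levels change. The FPKM ratio of Fgfr1 to Fgfr2 was 1.15 and 1.17 in sham and 2.13 and 2.36 in post-PNX libraries, a change of 1.93-fold. The ratio of Fgfr1 to Fgfr3 changed by 1.77-fold and that to Fgfr4 by 1.84-fold, also without overlap of the groups. The ratio of Fgfr4 to Fgfr3 overlapped, with 0.254 and 0.263 in sham and 0.254 and 0.241 after PNX. An exact permutation test of 2 libraries against 2 cannot give a two-sided p below 0.333, so no p is given for these ratios.

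**Figure D3:**
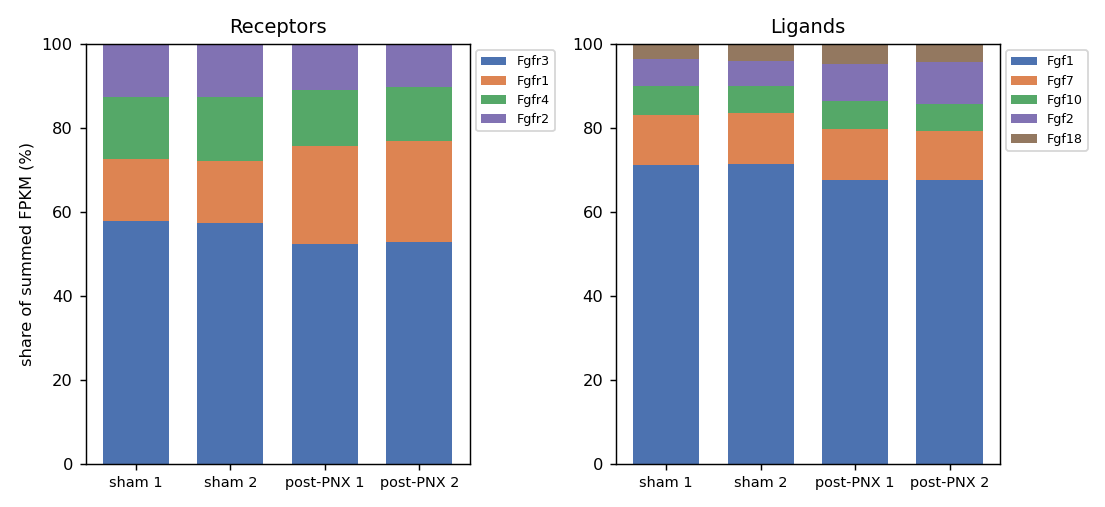
Share of each receptor (left) and each ligand (right) in the summed FPKM of its set, in percent, for each of the 4 libraries. Fgfr1 (orange, left) widens from 14.6% and 14.9% in sham to 23.4% and 24.2% in post-PNX libraries, and Fgf1 (blue, right) holds at least 67.6% of the ligand sum in every library.

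The receptors Fgfr1, Fgfr2 and Fgfr3 exist in forms that differ in the exon for the second part of the third immunoglobulin-like domain, called IIIb and IIIc. The exon decides which ligands bind, and the IIIb form of Fgfr2 is the one that binds Fgf7 and Fgf10. The deposited tables hold a transcript of each form for Fgfr2 and Fgfr3, and the IIIb exons are shown because counts on them would tell this form apart. Sequences are those of the GENCODE M21 transcripts matched to the RefSeq identifiers, on mm10, written 5′ to 3′ on the strand of the gene. Capitals mark bases that differ between Fgfr2 and Fgfr3 in an alignment of these exons. Both exons are coding, and their numbers count all exons of the transcript, coding or not.
Fgfr2 IIIb, coding exon 6 of 16, minus strand, chr7:130199758-130199905: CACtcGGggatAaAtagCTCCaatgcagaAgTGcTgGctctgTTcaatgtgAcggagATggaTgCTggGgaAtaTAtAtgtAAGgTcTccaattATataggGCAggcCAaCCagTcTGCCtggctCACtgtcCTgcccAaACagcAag
Fgfr3 IIIb, coding exon 7 of 17, plus strand, chr5:33731281-33731431: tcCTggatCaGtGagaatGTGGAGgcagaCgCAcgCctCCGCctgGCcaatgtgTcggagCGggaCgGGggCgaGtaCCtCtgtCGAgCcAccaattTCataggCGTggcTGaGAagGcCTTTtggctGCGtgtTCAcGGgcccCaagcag

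The IIIb exon of Fgfr3 shared 91 of the 148 bases of that of Fgfr2. The deposited counts of the forms were nearly equal, as were those of all transcripts of a receptor gene, so reads on shared exons appear to have been counted for each. The IIIb transcript of Fgfr2 had 98.3% to 98.8% of the counts of its IIIc transcript over the 4 libraries, and the difference was 34 to 64 counts. In Fgfr3 the IIIc transcript differed from the IIIb transcript by -11 and 23 counts in sham and -1 and 27 counts in post-PNX libraries. The transcripts of a pair also differ in other exons, so these counts do not give the share of either form in any library.

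Fgf1, a ligand that binds every receptor of the family, was the most abundant of the ligands. It lies on chromosome 18 from 38838672 to 38929470. Its normalized counts were 8511 and 8577 in sham and 6485 and 6571 in post-PNX libraries. Both post-PNX libraries were lower, and the libraries of a group lay close together. Fgf1 fell with a log2 fold change of -0.39 (SE 0.023, edgeR adjusted p = 1.0e-22), the largest fall of the 9 members. Arhgap26 spans the whole of Fgf1 and had a log2 fold change of 0.00 (edgeR adjusted p = 0.953), and Gm5820, which overlaps Fgf1 over 37015 bases, had 18 to 23 counts per library.

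Fgf7, also known as keratinocyte growth factor, lies on chromosome 2 from 126034658 to 126091185. Its normalized counts were 973 and 995 in sham and 793 and 780 in post-PNX libraries, without overlap. Fgf7 fell with a log2 fold change of -0.32 (SE 0.054, edgeR adjusted p = 4.1e-07). Fam227b spans the whole of Fgf7, with 24 to 50 counts per library and a log2 fold change of -0.40 (edgeR adjusted p = 0.193). Fgf10, the other ligand of the IIIb form of Fgfr2, lies on chromosome 13 from 118714699 to 118792573. Normalized counts of Fgf10 were 977 and 900.1 in sham and 741 and 731 in post-PNX libraries, also without overlap. Fgf10 fell with a log2 fold change of -0.35 (SE 0.056, edgeR adjusted p = 1.4e-07). The FPKM ratio of Fgf7 to Fgf10 overlapped between the groups, with 1.70 and 1.89 in sham and 1.83 and 1.83 after PNX.

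Fgf2, on chromosome 3 from 37348477 to 37410106, had few counts. Fgf2 had normalized counts of 133 and 127 in sham and 151 and 170 in post-PNX libraries, so both post-PNX libraries were above both sham libraries. The log2 fold change of 0.30 (SE 0.13) did not pass (edgeR adjusted p = 0.0381), and it passed with the endothelial scaling or a threshold of 0.05. Nudt6 overlaps Fgf2 over 5125 bases and had 387 to 455 counts per library, more than Fgf2 with 125 to 154. How the counting used strand is not given in the sources used here, so reads of the overlap cannot be assigned. Fgf18, on chromosome 11 from 33116970 to 33147400, had 173 and 194 normalized counts in sham and 176 and 165 in post-PNX libraries. The groups overlapped, and the log2 fold change was -0.10 (SE 0.12, edgeR adjusted p = 0.470).

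Of the ligands, Fgf1 held 71.2% and 71.4% of the summed FPKM of the 5 genes in sham and 67.7% and 67.6% in post-PNX libraries. The sum itself was 41.5 and 41.8 FPKM in sham and 33.5 and 33.9 FPKM in post-PNX libraries. Of the 13 other secreted FGF genes, only Fgf9 and Fgf23 passed the filter on low counts. Fgf9 had 27 ± 1.1 normalized counts in sham and 33 ± 0.78 (both SD, n = 2) after PNX and did not pass the test (edgeR adjusted p = 0.404). Fgf23, the bone-derived hormone of phosphate balance, had 4 and 1 counts in sham and 32 and 28 in post-PNX libraries (edgeR adjusted p = 3.2e-09). It passed the filter through its post-PNX counts, so its place among the genes tested was bound to the rise. Fgf4 and Fgf6 had 0 counts in every library. Of the intracellular FGF homologous factors, which bind sodium channels and not FGF receptors, Fgf12 rose by 1.52-fold (edgeR adjusted p = 0.00485). That call was lost with DESeq2 and without sham 1, post-PNX 1 or post-PNX 2, each of which left 0 of these genes past the test. Fgf11 (log2 fold change 0.11) and Fgf13 (-0.38) did not pass.

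Fgfrl1, Klotho (Kl), the FGF binding proteins and the Flrt proteins bind FGFs or their receptors. Of the 7 such genes tested 1 was higher and 3 were lower past the test (29.3% and 27.8% of all genes). Fgfbp1, which releases FGFs from heparan sulfate, fell from 186 and 205 to 74.7 and 62.4 normalized counts (log2 fold change -1.50, SE 0.14, edgeR adjusted p = 4.9e-14). Flrt2, a membrane protein that can bind FGF receptors, rose from 841 and 788 to 1774 and 1776 (log2 fold change 1.12, SE 0.047, edgeR adjusted p = 2.2e-30). They were the only genes of this list beyond 2-fold, in opposite directions. With DESeq2 1 gene of the list, in place of 3, was lower past the test. Kl fell with a log2 fold change of -0.62 and Flrt3 with -0.16, but Flrt3 was at 0.10 and Kl did not pass (edgeR adjusted p = 0.0589) with the endothelial scaling. Fgfrl1, which lacks the kinase domain, was level at 0.01 (edgeR adjusted p = 0.833), and passed as higher with the endothelial scaling (0.28).

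Of the 10 adaptors and signalling enzymes tested, 5 were lower and 1 higher past the test (27.8% and 29.3% of all genes). None was beyond 2-fold. The largest falls were those of Plcg1 (log2 fold change -0.36), which encodes phospholipase C gamma, and of the RAS activator Sos1 (-0.33). Sos2 was at -0.27 and the ubiquitin ligase gene Cbl at -0.25, and the adaptor gene Shc1 rose with 0.27. With the endothelial scaling 4 were higher and only Plcg1 was lower past the test, and Cbl changed sign.

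Of the 11 inhibitors of FGF and ERK signalling tested, 3 were higher and 5 lower past the test (29.3% and 27.8% of all genes). Their median log2 fold change was -0.10. Spry1 fell from 4191 and 4151 to 2691 and 2690 normalized counts (log2 fold change -0.63, SE 0.030, edgeR adjusted p = 2.2e-27). Dusp6, which encodes the ERK phosphatase and had the highest counts of the list, fell with -0.38 (edgeR adjusted p = 9.8e-25). Both stayed lower past the test with the endothelial scaling. Spred2 (-0.29) did not pass there. Spred3 (0.69) and Dusp4 (0.21) rose. The higher genes were 1 in place of 3 without sham 2, without post-PNX 1 or with DESeq2.

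Of the 6 genes known as transcriptional targets of FGF signalling, 3 were higher and 2 lower past the test (29.3% and 27.8% of all genes). The ETS factor Etv4 rose from 12 and 6 counts to 121 and 124 (log2 fold change 3.87, SE 0.26, edgeR adjusted p = 1.9e-20), the only one beyond 2-fold. Like Fgf23, it passed the filter on low counts through its post-PNX libraries. Its relative Etv5, which alveolar type 2 cells also express, fell with -0.47 (edgeR adjusted p = 2.4e-19), and Etv1 did not pass (0.18, edgeR adjusted p = 0.0152). Ccnd1 (0.58), which encodes cyclin D1, and Myc (0.47) rose. Egr1 fell with -0.12 under TMM, but it was higher past the test with the endothelial scaling (0.14).

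The core proteins that carry heparan sulfate were higher in 9 of the 12 genes tested and lower in 0, also at an unadjusted p under 0.05 and with DESeq2, with a median log2 fold change of 0.50, beside 29.3% of all genes higher. Col18a1, the collagen of basement membranes from which endostatin is cut, rose from 3759 and 3634 to 9166 and 8920 normalized counts (log2 fold change 1.29, SE 0.026, edgeR adjusted p = 1.9e-47). Hspg2, which encodes perlecan, rose with 0.89, the glypican gene Gpc3 with 0.77, Gpc2 with 0.60 and the syndecan gene Sdc4 with 0.59. Agrn, which encodes agrin and had the highest counts of the list, rose with only 0.15. With the endothelial scaling all 12 were higher past the test.

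The enzymes that build and trim heparan sulfate were split, with 6 higher and 6 lower of 19 tested and a median of -0.05. Both counts stand beside similar shares of all genes, 29.3% higher and 27.8% lower. Among the higher genes were heparanase (Hpse, log2 fold change 0.88), which cuts the chains, the polymerase gene Ext1 (0.70) and Sulf1 (0.63), which removes sulfate from outside the cell. Among the lower were Hs6st2 (-0.73) and Hs3st1 (-0.60), which add sulfate, and Ndst1 (-0.46), which starts sulfation and had the highest counts of the list. Ndst1 and Hs3st1 stayed lower past the test with the endothelial scaling, while Hs6st2 did not pass (edgeR adjusted p = 0.0116). Over all these lists together, 25 genes were higher and 21 lower past the test, beside 29.3% and 27.8% of all genes tested. With the endothelial scaling 39 were higher and 8 lower, beside 9526 and 1367 of all 16208 genes tested. The 25 include Fgf23 and Etv4, which passed the filter on low counts through their post-PNX libraries.

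**Figure D4:**
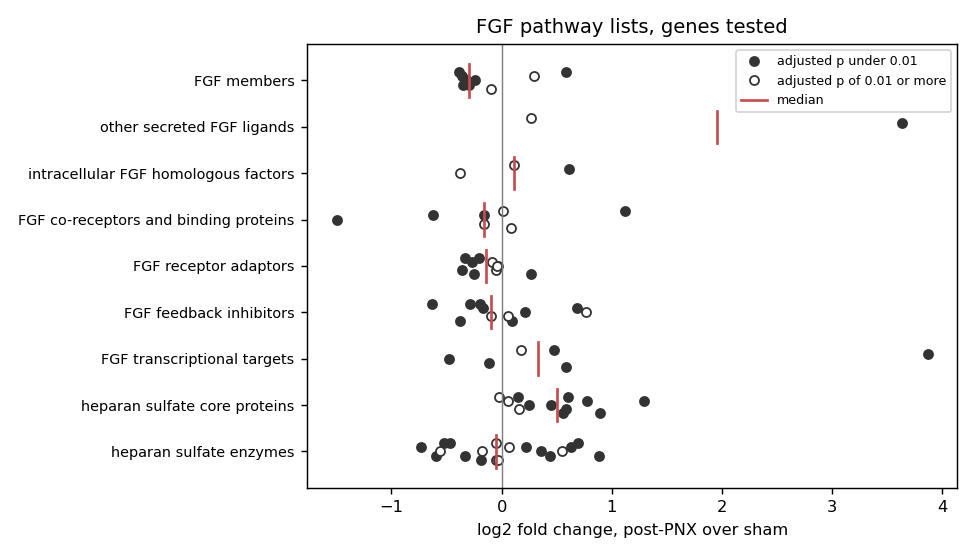
Log2 fold change (horizontal axis, post-PNX over sham) of each tested gene of the FGF pathway lists, filled where the adjusted p was under 0.01 and open otherwise, with red lines at the list medians. The heparan sulfate core proteins lie mostly to the right of 0, and the other longer lists lie on both sides. Vertical offsets within a list carry no meaning.

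Genes of several cell types moved between the groups as well. The counts of markers below stand beside 29.3% of all genes higher and 27.8% lower past the test. The summed level of 8 alveolar type 2 markers was 7251 and 7260 CPM in sham and 4705 and 4677 CPM in post-PNX libraries, all 8 were lower past the test, and their median log2 fold change was -0.62. Of 6 alveolar type 1 markers 5 were lower and Pdpn, named after its values were seen, was higher at 0.39 (median -0.45, summed level 1716 and 1738 against 1255 and 1265 CPM), and of 7 airway epithelial markers 7 (median -0.90, 3847 and 3869 against 1940 and 1879 CPM). Fgf1 (-0.39), Fgfr2 (-0.36), Fgfr4 (-0.30) and Fgfr3 (-0.24) fell less than these epithelial medians. Single epithelial markers differed widely. Scgb1a1 (-1.04), Hopx (-0.67) and Sftpc (-0.62) fell more than these members, and Ager (-0.38), Aqp5 (-0.30) and Cdh1 (-0.25) fell by similar amounts. The 12 endothelial markers had a median of -0.25, with 10 lower and 1 higher, and a summed level of 11977 and 12100 CPM in sham and 10030 and 10067 CPM in post-PNX libraries. The falls of Fgfr3 and Fgfr4 were close to this median.

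The 12 fibroblast markers had a summed level of 3397 and 3416 CPM in sham and 6402 and 6421 CPM in post-PNX libraries, with 8 higher and 3 lower (median 0.67). The 4 of highest mean count moved apart. The collagen genes Col3a1 (2.27) and Col1a2 (2.08) rose, Npnt was higher by 0.07 and Inmt fell with -1.04. Smooth muscle and pericyte markers were higher in 9 of 10 genes (median 0.44, 565 and 573 against 764 and 758 CPM), and mesothelial markers in 7 of 7 (median 1.08, 214 in both sham libraries against 485 and 488 CPM). Fgfr1 (0.58) rose by an amount between the smooth muscle and fibroblast medians. Fgf7 and Fgf10 fell, as did 3 of the 12 fibroblast markers, while the fibroblast sum was higher.

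Macrophage markers were higher in 7 of the 7 tested (median 2.82, 468 and 461 against 1244 and 1255 CPM). Pan-leukocyte markers were higher in 3 and lower in 1 of 5 (median 0.16, 817 in both sham libraries against 862 and 873 CPM). T cell markers were lower in 5 of 5 (median -0.86, 30.3 and 32.7 against 17.1 and 17.0 CPM) and B cell markers in 4 of 4 (median -0.82, 130.2 and 129 against 75.1 and 71.6 CPM). Adipocyte markers had 3 higher and 1 lower of 4 tested (median 1.59, 26.4 and 25.5 against 27.1 and 27.0 CPM). Adipoq (1 count in each sham library, 83 and 93 after PNX) and Plin1 (7 in each sham library, 45 and 34 after PNX) passed the filter through the post-PNX libraries, and Cidec, the most abundant, fell with -0.21. No marker present in the tables had 0 counts in all libraries. The part of these cell types in the changes of the FGF genes was not tested.

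**Figure D5:**
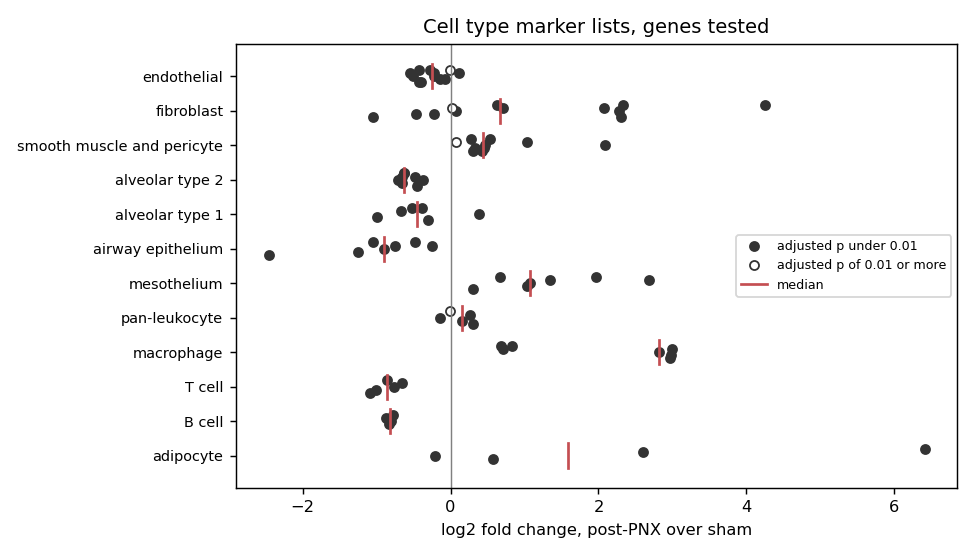
Log2 fold change (horizontal axis, post-PNX over sham) of each tested gene of 12 cell type marker lists, filled where the adjusted p was under 0.01 and open otherwise, with red lines at the medians. T cell, B cell and epithelial markers lie left of 0 apart from 1 alveolar type 1 marker, macrophage and mesothelial markers right of 0, and fibroblast markers on both sides.

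The genes whose profile over the 4 libraries was most like that of Fgfr1 were Dnase2a, Slc39a1 and 1810055G02Rik, of the 14298 genes whose mean normalized count was 50 or more. The measure was the Euclidean distance of mean-centred log2 normalized counts, which was 0.015, 0.019 and 0.020. For Fgf1, the member with the largest fall, they were 4932438A13Rik (0.0075), Srrm2 (0.0088) and Zbtb39 (0.010). With 4 libraries in 2 groups, this likeness says little more than that the fold changes were of the same size.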

How the data were processed

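Lung ECs were compared between 2 post-PNX and 2 sham libraries. Per the labels and the study's methods, a stranded mRNA kit was used, paired ends were sequenced, and reads were aligned to mm10 (the submitters' processing notes name STAR). The counting program and its strand setting are not given in the sources used here. For each library the authors deposited whole-number counts on 33068 RefSeq transcripts, and the near-equal counts of a gene's transcripts show that shared reads were counted more than once. The authors also deposited FPKM and TPM values. FPKM served for levels per length, and TPM were not used.

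Each symbol was represented by its transcript of highest total count. In R 4.3.3, edgeR 4.0.16 (filterByExpr, TMM, quasi-likelihood test without covariates, Benjamini-Hochberg adjustment) tested 16208 genes. Genes past the test had an adjusted p under 0.01, and a log2 fold change beyond 1 was counted separately. The standard error is the log2 fold change divided by the square root of F. Normalized counts are scaled to the mean library size. The members and lists were chosen with earlier results of these data known. All 9 members are named, every tested gene of lists of up to 8 may be named, of longer pathway lists up to 5 with the largest changes past the test (mean of at least 50 normalized counts) and the one with the highest count, and of marker lists up to 4 with the highest mean count. Exceptions chosen after their values were seen are Pdpn and the genes that overlap a member. Alternatives were other scalings and filters, DESeq2 1.42.0, a replicate block, summed transcripts, an adjusted p under 0.05 and each library left out. On data simulated with 1 common dispersion, the test recovered 200 of 200 genes changed by 4-fold among 16208. The changed genes were drawn from those with a mean of at least 50 counts. Changes as small as those of the members were not simulated. Positions are RefSeq coordinates on mm10. The study's methods give each library as a pool of 2 mice. The p-values rest on the spread between 2 libraries per group, and edgeR draws each gene's dispersion estimate toward that of the other genes. The spread between libraries of a group was little above counting error. The mean chi-square per gene between the libraries of a group was 1.76 (sham) and 1.52 (post-PNX), where counting error alone gives about 1. Between sham 1 and post-PNX 1 it was 133. How much of the variation between mice the p-values hold was not tested. The sequences of the IIIc exons are not reported here.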

Additional observations from a re-analysis of the deposited data

How the results depend on the processing

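Scaling to the 12 endothelial marker genes changed most. The members past the adjusted p became 2 higher and 1 lower, in place of 1 and 6, and their median log2 fold change became -0.036 in place of -0.30. The log2 fold changes of Fgfr3 and Fgf18 changed sign, to 0.022 and 0.16. The genes of all pathway lists together became 39 higher and 8 lower, in place of 25 and 21. All genes tested became 9526 higher and 1367 lower, in place of 4745 and 4513. This scaling shifts every gene by the same amount, 0.26 at the median of all genes. A threshold of 0.05 on the adjusted p added Fgf2, for 2 higher members. No other alternative changed a count of members, and 0 members were beyond 2-fold under any of the 13 alternatives. The DESeq2 Wald test also gave 1 higher and 6 lower members. With any single library left out, 1 member was higher and 6 were lower, and the median log2 fold change lay between -0.33 and -0.27. Of the 117 alternative values of single members, 109 kept their direction and their side of the threshold.

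Replicate numbers 1 and 2 occur in both groups, but the libraries come from different mice. Deviations of libraries with the same number correlated with r = 0.030 across genes, which are not independent replicates. With the replicate number as a block, the members were again 1 higher and 6 lower, with a median of -0.30, and the pathway lists 25 and 21. Fgf2 and Fgf18 had 125 to 191 counts per library, and their changes did not pass the test at this depth. A minimum mean of 50 counts removed Fgf23 from the genes tested, and its fold rests on 4 and 1 sham counts.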
